A study of Danio rerio with 3 samples.

Results

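The lens crystallins are the structural proteins that fill the fiber cells of the eye lens and give it its refractive power. The members described here are the genes whose deposited symbol begins with cryaa, cryab, cryba, crybb, crygm, crygn or crygs, which gave 51 of the 24555 genes in the deposited tables. They are 2 alpha, 7 beta A, 6 beta B, 31 gamma M, 2 gamma N and 3 gamma S crystallins. Alpha crystallins are small heat shock proteins that keep other lens proteins from aggregating, whereas beta and gamma crystallins share a compact fold and pack densely. Gamma M crystallins are rich in methionine, are abundant in the hard, spherical lenses of fish, and are encoded by many tandem copies. Lens fiber cells make crystallin transcripts while they differentiate and lose their nuclei as they mature.

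RNA came from whole zebrafish larvae of the AB background at 7 days post fertilization. The control larvae were wild type. The knockout larvae were titled serpini1-/-, and their genotype label reads Tg (serpini1-/-), with no word on the kind of mutation. Serpini1 encodes neuroserpin, an inhibitor of tissue-type plasminogen activator in the nervous system. The transgenic larvae carried huc:teton:gal4, a doxycycline-dependent driver under the neuronal huC promoter, and tre:serpini1:mkate2, a responder with serpini1 and a red fluorescent protein. Since no larvae had the driver and mKate2 alone, any effect of these and that of serpini1 cannot be told apart. Doxycycline at 40 µg/mL was given to every group, wild type included, between days 3 and 7. Each group gave 1 library from 30 pooled larvae, so no difference below has a replicate check, and no test between conditions was made.

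Values are FPKM, fragments scaled to transcript length and library depth by the authors. Control, knockout and transgenic libraries had inferred depths of 7810000, 7830000 and 8050000 fragments. Intervals are 95% Clopper-Pearson intervals on fragments estimated from FPKM, and they cover counting error only, not variation between pools of larvae. Serpini1 itself stood at 20.04 FPKM in control, 8.05 FPKM in the knockout and 288 FPKM in the transgenic library, so the libraries followed their labels in direction. In whole larvae, fewer lens cells, less RNA per lens cell and more RNA from other tissues cannot be told apart. Fiber cell genes other than crystallins were present in each library. The lens membrane protein gene lim2.4, for example, stood at 114, 103.11 and 103.62 FPKM in control, knockout and transgenic larvae.

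Crystallins were among the most abundant transcripts of the larvae. The 43 members with a value in each library summed to 26545 FPKM in control, 24125 FPKM in the knockout and 21799 FPKM in the transgenic library. That was 4.14%, 3.71% and 3.37% of the FPKM of all genes with a knockout value. Control was highest and transgenic lowest. The levels fell into 2 classes. The 30 abundant members averaged at least 100 FPKM over the libraries and held 99.02% of the family's FPKM in control, and all 30 were among the 500 highest genes in each library. The 21 scarce members lay below. The members nearest to the gap were crygm2d6, with a mean of 196 FPKM, and cryaa, with a mean of 57.7 FPKM. This split was drawn after the values were seen.

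The 8 members without a knockout value were cryabb, crybb2, crybb3, crygm3, crygm4, crygs2, crygs3 and crygs4. The table of all libraries used here ends at 0.58 FPKM in the knockout. None of the 8 exceeded 1.74 FPKM in control or 1.25 FPKM in the transgenic library, so sums over the family are barely touched by them.

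Among members with values, the alpha subfamily consisted in effect of cryaa, a chaperone of the lens. Cryaba, an alpha B gene of the RefSeq gene set, had no value in any library here, so its level is unknown. Cryaa stood at 69.4 FPKM in control, 47.45 FPKM in the knockout and 56.4 FPKM in the transgenic library. Control was again the highest, but here the knockout was the lowest. The level was 31.6% lower in the knockout than in control (interval 23.2% to 39.2%), and the transgenic level was 1.19-fold that of the knockout (1.05 to 1.34). Cryabb, a second alpha B gene related to a chaperone made widely outside the lens in mammals, was near the limit of detection at 0.60 FPKM in control and 0.81 FPKM in the transgenic library.

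Beta A crystallins, the acidic members of the beta group, summed to 5281 FPKM in control, 4774 FPKM in the knockout and 4211 FPKM in the transgenic library. The sum was 9.60% lower in the knockout (8.15% to 11.02%) and 20.3% lower in the transgenic library (19.0% to 21.6%) than in control. Cryba4, the highest crystallin gene of the control library, stood at 1848 FPKM there, at 1655 FPKM in the knockout and at 1425 FPKM in the transgenic library. Its rank among all genes was 86 in control and 113 in the transgenic library. Cryba1l1 went the same way at 1130, 982 and 830.5 FPKM.

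Among the other beta A genes, cryba2b, cryba2a and cryba1a differed from that order. Cryba1b stood at 931, 916 and 734 FPKM in control, knockout and transgenic larvae, so that the knockout lay within 1.02-fold of control (0.983 to 1.05). Cryba2b was lowest in the knockout, at 916, 769 and 811 FPKM. Its paralog cryba2a stood at 419, 421 and 387 FPKM, a narrow range. The ratio of cryba2b to cryba2a was 2.19 in control (2.09 to 2.29), 1.83 in the knockout (1.75 to 1.91) and 2.09 in the transgenic library. Among the scarce members, cryba1l2 stood at 24.8, 18.3 and 16.3 FPKM. Cryba1a stood at 11.9, 13.6 and 6.66 FPKM, with the transgenic level 1.79-fold below control (1.23 to 2.62).

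Beta B crystallins, the basic partners of the beta A chains, showed the widest gap between the knockout and transgenic libraries. They summed to 3430 FPKM in control, 3324 FPKM in the knockout and 2580 FPKM in the transgenic library over the 4 members with a value in each. The knockout sum was 3.09% lower than control (1.46% to 4.71%), while the transgenic sum over all 6 members was 24.8% lower (23.5% to 26.1%). With FPKM scaled to the median gene, the knockout ratio was 0.994 in place of 0.969, so the small difference from control rests on the scaling.

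Within beta B, crybb1 stood at 1298 FPKM in control, 1380 FPKM in the knockout and 1012 FPKM in the transgenic library. Its relative crybb1l2 stood at 1310, 1142 and 972 FPKM. The pair was level in control, with a ratio of crybb1 to crybb1l2 of 0.990 (0.964 to 1.02), but crybb1 was ahead by 1.21-fold in the knockout (1.18 to 1.24) and 1.04-fold in the transgenic library (1.01 to 1.07). Crybb1l1 stood at 821, 800.3 and 595 FPKM, a knockout level 1.03-fold below control (0.990 to 1.06) and a transgenic level 1.38-fold below it (1.33 to 1.43). The remaining beta B genes were scarce. Crybb1l3 stood at 1.93, 2.14 and 1.24 FPKM, crybb2 at 1.33 FPKM in control against a listed 0 in the transgenic library, and crybb3 at a listed 0 in control. Crybb1l3 and cryba1a overlap in the genome, as do crygm3 and crygs4, and use of strand in counting is not stated, so their separate values are uncertain.

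**Figure D1:**
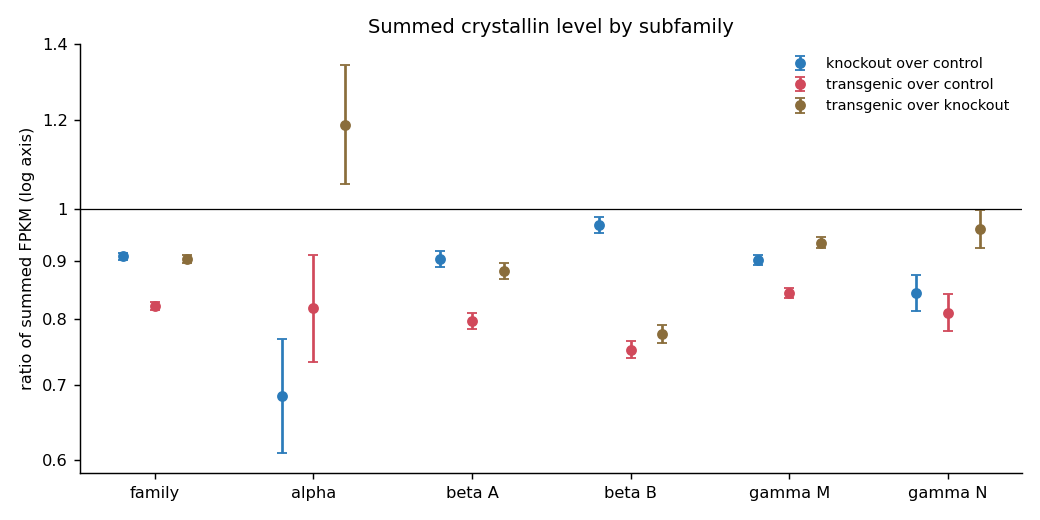
Ratio of summed FPKM between libraries (log axis) for the family and 5 subfamilies, with 95% Clopper-Pearson intervals of counting error only; gamma S is not drawn because no member has a knockout value. The transgenic over control ratios lie between 0.752 (beta B) and 0.843 (gamma M), and the knockout over control ratios between 0.684 (alpha, cryaa alone) and 0.969 (beta B).

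Gamma M crystallins made up the bulk of the family, at 63.5% of its FPKM in control, 63.1% in the knockout and 65.2% in the transgenic library. They summed to 16854, 15211 and 14214 FPKM in control, knockout and transgenic larvae. The sum was 9.75% lower in the knockout (8.79% to 10.7%) and 15.7% lower in the transgenic library (14.8% to 16.6%). Most of it came from 19 genes named crygm2d, which held 59.3% of the family's FPKM in control. The crygm2d genes are copies with very similar sequences, and no source used here says how fragments that match several copies were assigned. The value of a single copy is therefore uncertain, and the sum is the firmer measure. The crygm2d copies together were 8.99% lower in the knockout (7.98% to 9.98%) and 14.8% lower in the transgenic library (13.9% to 15.8%).

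The copies themselves differed widely in level. In control they ran from 206 FPKM for crygm2d6 to 1226 FPKM for crygm2d13, with a median of 856 FPKM, and the medians were 771 FPKM in the knockout and 710 FPKM in the transgenic library. Crygm2d13 stood at 1226, 1134 and 1040 FPKM, crygm2d10 at 1124, 1047 and 963 FPKM, and crygm2d1 at 1162, 976 and 957 FPKM. Crygm2d2 at 1130, 992 and 934 FPKM and crygm2d19 at 1064, 955 and 956 FPKM completed the 5 highest by mean over the libraries. In the transgenic library all 19 copies lay below control, with ratios from 0.773 to 0.994. In the knockout 16 of 19 did, with ratios from 0.790 to 1.08. Crygm2d14, a further copy that is no member because its deposited symbol differs, was above control in both, at 367, 395 and 391 FPKM.

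A neighbouring pair of genes of the gamma MX type gave a contrast within the gamma M group. Crygmx stood at 559 FPKM in control, 405 FPKM in the knockout and 376 FPKM in the transgenic library. Crygmxl2, next to it in the genome, stood at 436, 441 and 379 FPKM. Crygmx was thus 1.28-fold above its neighbour in control (1.22 to 1.35), but 0.918-fold in the knockout (0.867 to 0.973) and 0.994-fold in the transgenic library (0.936 to 1.06). Among the 30 abundant members crygmx had the lowest ratio to control in both of the other libraries, at 0.724 and 0.673.

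All 51 members were found by gene identifier among the RefSeq genes of assembly GRCz12tu, which is not the build named for these data and serves here only for the order of genes. In that order, 28 members sit in 1 uninterrupted run of 31 protein-coding crystallin genes. The rest of the run is crygm2e, crygm2d14 and crygm2d5. The first of these also carries a different symbol in the deposited tables, at 13.8, 8.86 and 10.2 FPKM. High and low members were not mixed along the run. The 19 crygm2d copies fill the middle of the run at 206 FPKM or more in control. The 9 members at its ends, crygm2c, crygmxl1, crygm2b and crygm2a on one side and crygm2f, crygm5, crygm3, crygs4 and crygs3 on the other, reached at most 45.3 FPKM.

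**Figure D2:**
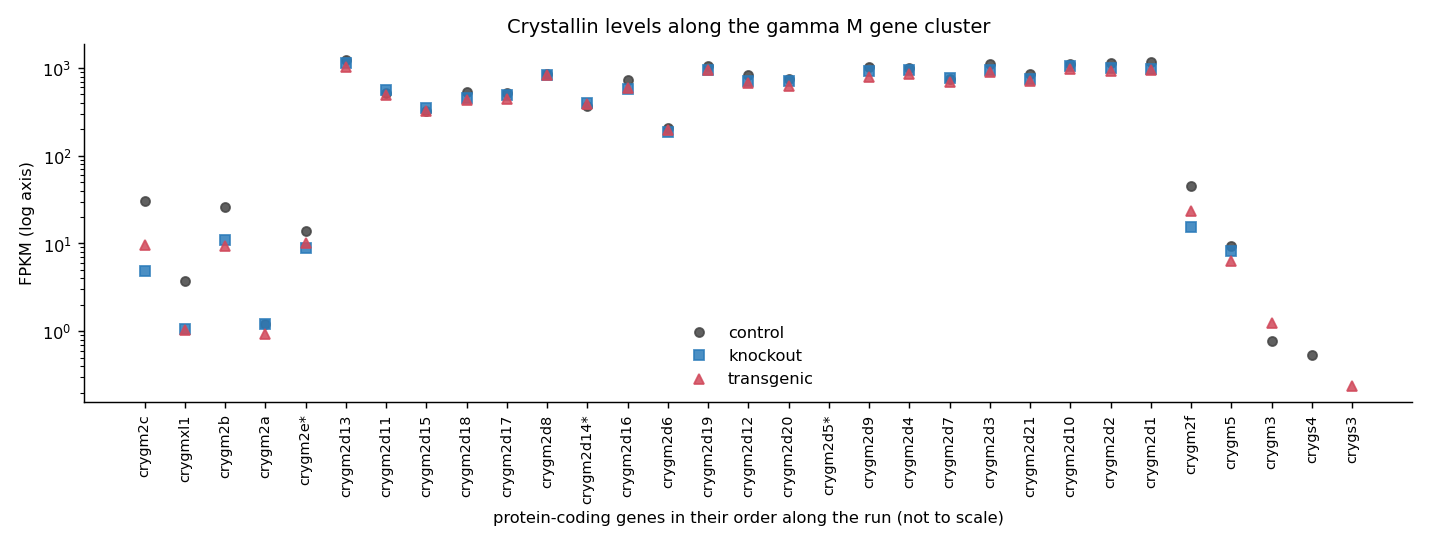
FPKM (log axis) in each library of the 31 protein-coding crystallin genes of the gamma M run, in their order in the assembly GRCz12tu and not to scale; an asterisk marks genes that are not members, and values of 0 or absent values are not drawn. The 19 crygm2d copies form a plateau at 186 FPKM or more in every library, and the genes at both ends lie at 45.3 FPKM or less.

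The scarce gamma M genes included all 5 members past the 2-fold rule in the knockout. Crygm2c stood at 30.3 FPKM in control, 4.87 FPKM in the knockout and 9.72 FPKM in the transgenic library. It was 6.22-fold lower in the knockout than in control (3.81 to 10.7) and 3.11-fold lower in the transgenic library (2.15 to 4.60). Crygm2f stood at 45.3, 15.2 and 23.4 FPKM, which is 2.97-fold lower in the knockout (2.21 to 4.05) and 1.93-fold lower in the transgenic library (1.497 to 2.51). Crygm2b stood at 25.9, 11.02 and 9.32 FPKM, 2.35-fold (1.63 to 3.46) and 2.78-fold lower (1.89 to 4.18). For each of these genes control was far above both other libraries.

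Other scarce gamma M genes had lower levels. Crygmxl1 stood at 3.69, 1.07 and 1.04 FPKM, and crygm7 at 4.13, 0.98 and 2.83 FPKM. Their knockout intervals were wide, at 3.45-fold lower (1.44 to 9.48) and 4.21-fold lower (1.55 to 14.3). Crygm1, at 7.05, 3.65 and 4.25 FPKM, and crygm5, at 9.37, 8.30 and 6.23 FPKM, were less far apart, and crygm2a stood at 1.22 FPKM in both control and knockout. Summed, the 8 scarce gamma M genes with a knockout value were 63.5% lower in the knockout (57.2% to 69.0%). All 10 were 53.6% lower in the transgenic library (46.2% to 60.1%). The abundant gamma M genes were 9.34% and 15.4% lower.

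The libraries sequenced few of these fragments. Crygm2c rested on an estimated 117 fragments in control and 19 in the knockout, and crygm7 on 21 and 5. The part of fragments shared with abundant copies in these values was not tested.

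Gamma N crystallins, whose gene structure lies between those of the beta and gamma groups, were led by crygn2. It stood at 885, 743 and 720 FPKM in control, knockout and transgenic larvae. Crygn1 stood at 25.3, 24.55 and 17.1 FPKM. Its transgenic level was 1.48-fold below control (1.14 to 1.93) and its knockout level 1.03-fold below (0.812 to 1.31), an interval that includes equality. Gamma S crystallins are the main gamma crystallin type kept in adult mammalian lenses, and the members with values were almost absent. Crygs1, a further RefSeq gene of this type, had no value in any library, so its level is unknown. Crygs2 stood at 1.74 FPKM in control and 0.71 FPKM in the transgenic library, crygs4 at 0.53 FPKM and listed at 0, and crygs3 listed at 0 and at 0.24 FPKM.

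Counted gene by gene, 5 of 43 members with values in both libraries were at least 2-fold lower in the knockout than in control and 0 were higher, on the scale of log2 (FPKM + 1). Over all 18663 genes past a floor of 1 FPKM in control or knockout, 0.664% were lower and 0.798% higher by the same rule. The 5 were crygm2c, crygm2f, crygm7, crygmxl1 and crygm2b. Crygm7 passed the floor only through control, at 4.13 FPKM against 0.98 FPKM, so it could not have lain above 0 or been called higher. Crygs2 and crybb2 could pass the 2-fold rule too if their knockout level were 0, at -1.45 and -1.22, but not at 0.58 FPKM. The median log2 ratio of the 43 members was -0.16, with 34 below 0 and 8 above. The 43 include the 19 crygm2d copies, which are not separate observations. Over all genes the median was -0.03, with 54.4% below 0. The authors' deposited table of the knockout comparison listed 151 genes lower and 115 higher than control. Its 3 members were crygm2c, crygm2f and crygm2b, at log2 ratios of -2.64, -1.57 and -1.24. That table rests on the same control and knockout libraries, so it is not separate support for the counts above.

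In the transgenic library 46 of 51 members passed the floor, and 4 of them were at least 2-fold lower than control while 0 were higher. The background was 1.26% lower and 3.56% higher among 19242 genes. The 4 were crygm2c, crygm2b, crybb2 and crygmxl1. Crybb2 passed the floor only through control, at 1.33 FPKM against a listed 0, so it could not have been called higher. All but 1 of the 46 lay below 0, the exception being crygm3 at 0.78 and 1.25 FPKM. Crygs2, at 1.74 and 0.71 FPKM, and crygm2a, at 1.22 and 0.93 FPKM, also passed the floor only through control. Crygm3 passed it only through the transgenic library. The floor thus fixed the side of 0 on which crybb2, crygs2, crygm2a and crygm3 were counted. The median of the 46 was -0.31, while that of all genes was 0.03, with 47.2% below 0. The 46 include the 19 crygm2d copies, which are not separate observations. Both comparisons share the control library. Between the transgenic and knockout libraries 0 of 43 members passed the rule in either direction, where 1.08% of 18775 genes were lower and 2.86% higher. The median of the members was -0.12 and that of all genes 0.04.

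Differences of the abundant members were small and mostly in one direction. Their log2 ratios of transgenic to control lay between -0.57 and -0.01, all 30 below 0. Those of knockout to control lay between -0.46 and 0.12, with 24 below 0. Among all 588 genes averaging 100 FPKM or more, crystallins included, 43.4% lay below 0 when the transgenic library was set against control, and 44.6% when the knockout was. The SD of FPKM log2 ratios among the 30 genes was 0.13 for transgenic against control and 0.14 for knockout against control. Counting error alone, taken as separate for each gene, gives 0.036 for each. That figure leaves out variation between pools and the division of fragments among copies. Of the 30 genes, 19 are crygm2d copies, which are not separate observations. What lies behind the wider spread was not tested.

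**Figure D3:**
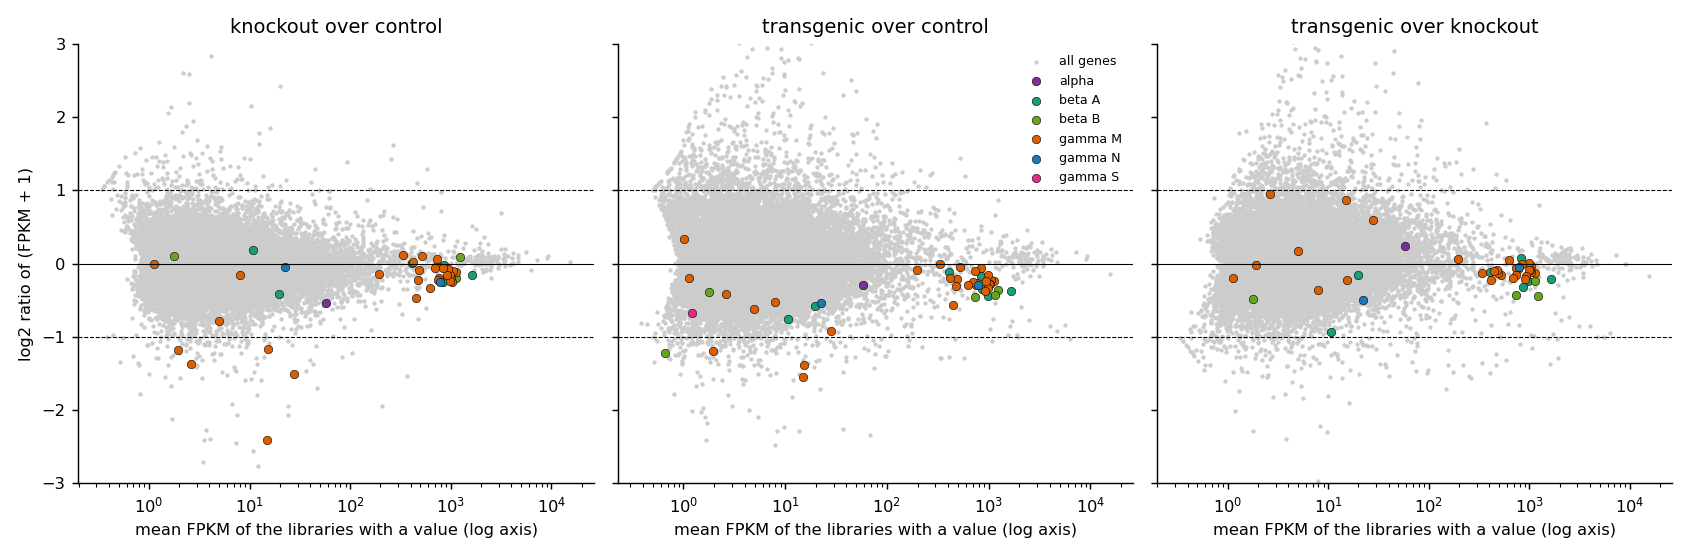
Log2 ratio of (FPKM + 1) against mean FPKM (log axis) for all genes past the floor of 1 FPKM (grey) and for crystallins coloured by subfamily, in 3 comparisons; dashed lines mark the 2-fold rule, and genes beyond 3 on the log2 scale fall outside the frame. The abundant crystallins lie between -0.57 and 0.12, with 6 of 30 above 0 for the knockout over control, 0 for the transgenic library over control and 4 for transgenic over knockout, and the members past the lower line are scarce genes.

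Other genes of the lens were then set beside the crystallins. Of 27 matched genes for lens fiber proteins and lens structure, 25 passed the floor. In the knockout 15 lay below 0 and 10 above, with a median of -0.03. In the transgenic library 13 lay below and 12 above, with a median of -0.06. Over all genes 54.4% and 47.2% lay below 0, with medians of -0.03 and 0.03. A single gene, lim2.2, passed the 2-fold rule, at 1.19, 3.80 and 3.88 FPKM, higher in both. It rested on an estimated 5, 16 and 17 fragments. By the same rule 0.798% of all genes were higher in the knockout and 3.56% in the transgenic library. Mipb, a water channel of fiber cells, stood at 60.4, 48.4 and 40.03 FPKM, and its paralog mipa at 35.05, 23.97 and 27.3 FPKM. The beaded filament genes bfsp1 and bfsp2 stood at 39.1, 39.0 and 30.2 FPKM and at 68.7, 78.04 and 53.7 FPKM. Lim2.5 stood at 23.6, 21.4 and 16.1 FPKM and lgsn at 21.3, 18.4 and 16 FPKM, while lim2.1 stood at 26.8, 27.4 and 28.95 FPKM. The 13 below control in the transgenic library were mipb, mipa, bfsp1, bfsp2, lim2.3, lim2.4, lim2.5, lgsn, gja8a, dnase1l1l, birc7, epha2b and fyco1a. Gja8a passed the floor there only through control, at 1.64 FPKM against 0.97 FPKM. The 12 of the 25 above control were lim2.1, lim2.2, gja3, gja8b, cx23, tdrd7b, grifin, cryl1, epha2a, sparc, cdh2 and fyco1b. These counts weigh scarce genes, and genes also made outside the lens, the same as abundant lens genes. Summed over the 25, the ratios to control were 1.03 in the knockout and 1.02 in the transgenic library. Sparc, also made in many tissues outside the lens, held 290 of the 854 FPKM of that sum in control.

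Lim2.3 stood at 53.4, 43.6 and 51.1 FPKM, lowest in the knockout. Grifin, a galectin relative of the lens, stood at 29.45, 31.2 and 29.55 FPKM, level in control and transgenic larvae. Sparc at 290, 353 and 377 FPKM and cdh2 at 30.4, 30.6 and 35.3 FPKM were highest in the transgenic library. Both are also made in many tissues outside the lens.

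Transcription factors of lens development lay on both sides of control. Of 14 factors past the floor, 7 lay below 0 and 7 above in each comparison with control. Their medians were 0.05 in the knockout and 0.02 in the transgenic library. Over all genes 54.4% and 47.2% lay below 0, with medians of -0.03 and 0.03. The RNA is of whole larvae, and the part of the lens in these values was not tested. Pitx3, needed for lens fiber differentiation, stood at 3.89, 7.11 and 7.61 FPKM, lowest in control. Hsf4, a heat shock factor of the lens, stood at 2.53, 1.42 and 1.95 FPKM. Of the large Maf factors, which bind crystallin promoters in vertebrates, mafaa stood at 9.85, 6.24 and 5.46 FPKM and mafa at 8.10, 7.88 and 7.38 FPKM. Mafba stood at 13.4, 11.7 and 15.2 FPKM. Mafbb, also made in macrophages, stood at 9.06, 6.03 and 19.3 FPKM and was the single factor past the 2-fold rule, higher in the transgenic library. By that rule 3.56% of all genes were higher there.

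None of the remaining factors passed the 2-fold rule. Prox1a stood at 11.3, 12.3 and 12.7 FPKM, sox1a at 5.34, 6.03 and 5.23 FPKM, and sox1b at 8.59, 8.04 and 7.86 FPKM. Pax6a stood at 14.6, 17.9 and 15.7 FPKM, pax6b at 5.61, 7.59 and 6.73 FPKM, and sox2 at 18.0, 20.2 and 17.5 FPKM. Six3a stood at 8.55, 8.46 and 6.83 FPKM and six3b at 12.4, 14.3 and 13.01 FPKM. Foxe3, a factor of the lens epithelium, stood under the floor at 0.50, 0.83 and 0.48 FPKM.

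**Figure D4:**
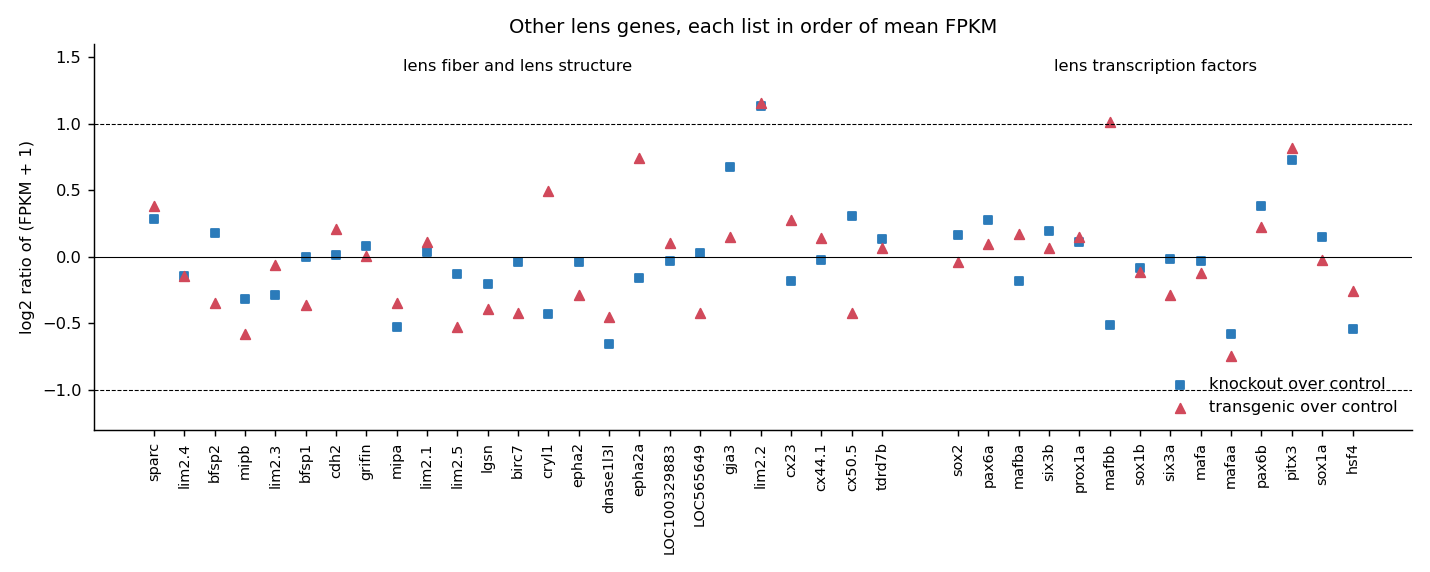
Log2 ratio of (FPKM + 1) of the knockout and the transgenic library over control for other lens genes and lens transcription factors at 1 FPKM or more, each list in order of mean FPKM; dashed lines mark the 2-fold rule. The points lie on both sides of 0, and lim2.2 and mafbb are past the upper line.

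Markers of other eye tissues were read for comparison, against medians over all genes of -0.03 in the knockout and 0.03 in the transgenic library. By the 2-fold rule 0.798% of all genes were higher and 0.664% lower in the knockout, against 3.56% and 1.26% in the transgenic library. Of 27 photoreceptor genes past the floor in the knockout, 9 lay below 0, where 54.4% of all genes did, with a median log2 ratio of 0.13. In the transgenic library 17 of 28 lay below 0, where 47.2% of all genes did, with a median of -0.07. Among these 17, opn1lw1 passed the floor only through control, at 1.27 FPKM against 0.23 FPKM. Genes of retinal neurons and Mueller glia had medians of -0.13 and 0.02 over 15 genes, and 1 of them, the photoreceptor factor six7, was past the rule, at 18.6, 16.5 and 5.91 FPKM. Retinal pigment epithelium genes had medians of -0.01 and -0.20 over 10 genes. Lens epithelium genes had medians of 0.07 and 0.61 over 4 genes, with cdh1, also a skin gene, past the rule at 23.3, 27.3 and 50.4 FPKM. The other 3 were cx43, pdgfra and epha2a. Foxe3, of the same list, stood under the floor at 0.50, 0.83 and 0.48 FPKM and is left out of these medians and of the sums. The RNA is of whole larvae, and the part of the lens in these 4 genes was not tested. Cornea genes had medians of 0.24 and -0.21 over 5 genes, with lum past the rule in the knockout at 9.02, 19.7 and 16.8 FPKM. The sums over these genes, as ratios to control in the knockout and the transgenic library, were 1.19 and 1.18 for photoreceptors. They were 0.891 and 0.832 for retinal neurons and Mueller glia, and 0.991 and 0.836 for retinal pigment epithelium. For lens epithelium they were 1.07 and 1.53, and for cornea 1.39 and 0.871. Krt5, also a skin gene, held 1666 of the 1700 FPKM of the cornea sum in control, with ratios of 1.38 and 0.865. Abundant genes weigh most in such sums. The part of any of these tissues in the crystallin values was not tested.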

How the data were processed

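The authors deposited FPKM per gene for 3 libraries, per the file headers, rounded to 2 decimals. Per the submitters' processing notes, HISAT, StringTie, DESeq2 and GRCz11 were involved, without stated versions or roles. The deposited comparisons are labelled PossionDis, read here as a Poisson method, and not DESeq2. The table of all libraries holds 19699 complete lines sorted by the knockout and ends at 0.58 FPKM in it. The deposited comparisons, the larger of 24529 genes, also give gene length, a log2 ratio and a p-value, and write 0 as 0.01. Tables were joined by gene identifier, and shared values differed by at most 0.01 FPKM. The authors' p-values compare 1 library with 1 library and were used only to infer depth. For genes listed at 0 in control they fix the fragments of the other library, and all 991 transgenic and 15 knockout genes lay within 0.05 of a whole number. Over 71 genes with at least 10 fragments, depth varied by 3.84% (coefficient of variation) with length shortened by 110 bases.

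Single genes were compared as log2 of (FPKM + 1), a scale that understates ratios of low genes, with a floor of 1 FPKM in either library and a 2-fold rule. Subfamilies were compared by ratios of summed FPKM. Fold values of genes are FPKM ratios. Knockout sums use the 43 members with a knockout value. The procedures were tested on simulated reads drawn separately for each gene, which cannot test fragments shared between copies or variation between pools. Python 3.11.15, pandas 2.3.3 and scipy 1.17.1 were used. Of 134 entries in the eye and related gene lists, 114 matched by deposited symbol and 12 through RefSeq. Members, lists and pairs were chosen with earlier results of these data known. Named genes are all members of subfamilies of up to 5, the 5 highest of larger ones, members past the rule and, in the lists, the 8 highest lens fiber genes, the lens factors and genes past the rule. A few more members and list genes, such as mipa and the rest of the lens fiber list, were named after their values were seen.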

Additional observations from a re-analysis of the deposited data

How the results depend on the processing

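Of 97 alternative values, 64 kept within the counting interval or 1.5-fold limit of the reported one. A further 30 moved outside it, and 3 turned direction. With median-scaled FPKM, 12 values moved and 13 did not. With FPKM scaled to the median gene, knockout over control ratios were 0.932 for the family, 0.928 for beta A, 0.994 for beta B and 0.926 for gamma M. Transgenic over control ratios were then 0.805, 0.782, 0.737 and 0.827, and transgenic over knockout ratios 0.871, 0.850, 0.748 and 0.901. Summed as fragments, the family gave 0.811 for transgenic over control and 0.890 for transgenic over knockout. Without crybb1, beta B gave 0.912, 0.735 and 0.806 in the order knockout over control, transgenic over control and transgenic over knockout. Without crygn2, gamma N gave 0.970, 0.674 and 0.695. Without cryba4, beta A gave 0.812 for transgenic over control. Without cryaa, alpha turned to 1.35 in that comparison, which is cryabb alone.

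Members under 100 FPKM, summed apart after the data were seen, gave 0.586 for knockout over control and 0.599 for transgenic over control, and turned to 1.02 for transgenic over knockout. For gamma M these were 0.365, 0.464 and 1.25. The members past 2-fold numbered 2 in each comparison with control at a pseudocount of 5, and 3 in the knockout and 2 in the transgenic comparison at a floor of 5 FPKM, since the genes concerned are scarce. Transgenic over knockout had 2 at a pseudocount of 0.1. Collapsing members by protein identity was not run, as no sequences were used here. No paired analysis was possible because each group has 1 library. Depth limits the scarce genes, and the lack of replicates limits every difference.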

Other observations

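Small heat shock protein genes, the wider family of the alpha crystallins, had medians of 0.02 in the knockout and 0.21 in the transgenic library over 9 genes on the scale of log2 (FPKM + 1). Hspb1 was past the 2-fold rule in the transgenic library, at 12.1, 16.6 and 43.4 FPKM in control, knockout and transgenic larvae, and hspb15 in the knockout, at 5.34, 1.94 and 4.50 FPKM. Of the 9, 5 lay above 0 and 4 below in each comparison with control, where 54.4% and 47.2% of all genes lay below. Hspb2 stood at 2.93, 5.45 and 5.99 FPKM, lowest in control. Hspb9 stood at 32.3, 23.8 and 21.0 FPKM, a transgenic level 1.54-fold below control (1.17 to 2.02). Hspb7 stood at 5.89, 4.83 and 4.54 FPKM. Its transgenic level was 1.30-fold below control (0.818 to 2.07), an interval that includes equality.

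A list of 8 genes with crystallin-related names or enzyme roles holds the quinone reductase gene cryz, at 6.58, 7.82 and 9.97 FPKM, and crot, a carnitine octanoyltransferase gene that is not annotated as a crystallin, at 4.29, 6.39 and 6.54 FPKM. All 8 lay above 0 in the transgenic library, with a median of 0.49, and 0 passed the rule. Over all genes 47.2% lay below 0, with a median of 0.03. Another of the 8, matched by identifier as crybg2, carries the symbol prdm1b in the deposited tables and is described there as a PR domain gene. Its place in this list is therefore uncertain. Crybgx, a beta gamma crystallin gene that the choice of symbols leaves out, stood at 348, 323 and 272 FPKM.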
